A study of Homo sapiens with 6 samples.

Results

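Homologous recombination and the Fanconi anaemia pathway were followed through 40 named genes in THP-1 cells with and without knockdown of the transcription factor NFIC. The genes were chosen by name for their roles in these pathways, with earlier results of these data known. All 40 were found by gene name among the 33981 genes of the count table. All 40 also passed edgeR's filter on low counts, so that each is among the 19182 genes tested. THP-1 cells are an established monocytic line from an acute myeloid leukaemia. The cells were infected with a lentivirus that carried either a scrambled shRNA (3 samples) or an shRNA against NFIC (3 samples), and GFP-positive cells were sorted 4 days later for bulk RNA sequencing. Every sample therefore shares the cell line, the viral infection and the GFP sort, and the groups differ by the shRNA. Per the study's figure legend, the NFIC shRNA samples carried the same hairpin. Effects of that hairpin on genes other than NFIC were not tested. The study's methods describe the control vector as carrying GFP only. The figure legend and the sample labels call it scrambled, and the name of the labels is used here. The labels do not say whether the 3 samples of a group came from separate cultures, so that the p-values measure the spread between these samples, which may be technical.

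Homologous recombination copies an intact sister chromatid to repair a broken one, and is used mainly in S and G2 phase, when a sister is present. The broken end is first cut back to single-stranded DNA by the MRE11-RAD50-NBN complex with its helpers. BRCA1 with BARD1, then PALB2 and BRCA2, place the recombinase on that strand, helped by its paralogs, and helicases and nucleases take the joined molecules apart again. The Fanconi anaemia pathway repairs crosslinks between the strands: a core complex attaches ubiquitin to FANCD2 and FANCI at a stalled replication fork, which brings nucleases and then recombination. Leukaemia is among the features of inherited Fanconi anaemia.

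Promoter sequence is shown for 4 genes on which the results turn. BRCA2 and BLM had the largest increases in the set, MUS81 had the largest decrease, and BARD1 was the member with the NFI motif TTGGCA. Each stretch runs from 250 bases before to 50 bases after the start of the gene in RefSeq (GRCh38.p14), 5′ to 3′ on the strand of the gene. Capitals mark the motif named beside each gene. The windows are chr13:32315258-32315557 on the plus strand for BRCA2, in which none of the motifs searched was found, chr15:90717096-90717395 on the plus strand for BLM with CCAAT boxes, chr2:214809634-214809933 on the minus strand for BARD1 with the NFI motif TTGGCA, and chr11:65860183-65860482 on the plus strand for MUS81 with a CCAAT box. RefSeq and GENCODE give different starts for BRCA2 and MUS81. The windows shown for both lie inside the gene intervals that GENCODE gives, which begin at 32315086 for BRCA2 and 65857126 for MUS81.
BRCA2: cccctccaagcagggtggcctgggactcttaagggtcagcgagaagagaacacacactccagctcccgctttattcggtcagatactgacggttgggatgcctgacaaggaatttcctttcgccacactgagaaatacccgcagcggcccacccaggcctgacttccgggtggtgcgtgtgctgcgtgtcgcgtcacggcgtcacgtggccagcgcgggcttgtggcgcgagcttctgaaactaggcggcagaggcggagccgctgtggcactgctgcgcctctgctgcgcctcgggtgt
BLM: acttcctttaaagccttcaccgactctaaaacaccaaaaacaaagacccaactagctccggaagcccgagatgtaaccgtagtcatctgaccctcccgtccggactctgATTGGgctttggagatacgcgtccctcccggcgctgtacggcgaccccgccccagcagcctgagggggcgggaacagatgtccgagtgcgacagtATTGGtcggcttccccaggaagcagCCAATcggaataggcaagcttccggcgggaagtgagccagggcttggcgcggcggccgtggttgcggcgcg
BARD1: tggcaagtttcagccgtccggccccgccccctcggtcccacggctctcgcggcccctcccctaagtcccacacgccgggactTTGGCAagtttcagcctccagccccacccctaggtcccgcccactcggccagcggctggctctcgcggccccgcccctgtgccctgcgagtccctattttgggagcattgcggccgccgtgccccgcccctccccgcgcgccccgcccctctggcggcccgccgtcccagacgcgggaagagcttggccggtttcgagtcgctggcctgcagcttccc
MUS81: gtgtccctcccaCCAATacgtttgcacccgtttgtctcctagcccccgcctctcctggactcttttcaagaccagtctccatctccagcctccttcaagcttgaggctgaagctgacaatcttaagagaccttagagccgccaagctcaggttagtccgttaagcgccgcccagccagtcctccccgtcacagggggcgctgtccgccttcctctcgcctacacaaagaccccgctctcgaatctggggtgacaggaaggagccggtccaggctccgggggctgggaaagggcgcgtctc

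Promoter windows were matched for 36 of the 40 genes. FANCI, RAD54B, NBN and WRN had no entry in the table used. Both strands were searched for 5 motifs, and a gene was counted if any of its windows held the letters. The NFI motif searched was TTGGCA, which is the arm TTGGC of the palindrome followed by A. It was in the window of 1 member, 2.78%, against 12.3% of the 11406 tested genes with a window. The arm TTGGC alone was not counted, and it also occurs in the windows shown for BLM and MUS81. The NFI palindrome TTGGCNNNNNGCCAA was in 0.0438% of tested genes and was not found in the members' windows. CCAAT, the box bound by NF-Y, was in 16 members (44.4%) against 42.6% of tested genes. An E2F site, written TTTCCCGC or TTTGGCGC, was in FANCC, FANCD2 and XRCC2, which is 8.33% against 4.50%. The cell cycle homology region TTTGAA was in 4 members, 11.1% against 14.0%. On the strands searched, the letters of the CCAAT box can overlap those of the NFI motif, and the NFI motif is not part of either E2F site. These counts describe letters in short windows, and binding of a factor was not measured.

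The samples held between 20369543 and 24809720 counts, and the detection floor of 3 counts lay at 0.121 to 0.147 CPM (counts scaled to library size with TMM factors). Such limits cover counting error only. The targeted gene was checked first. NFIC was at 42.1, 41.4 and 42.2 CPM with scrambled shRNA and at 19.4, 22.3 and 21.4 CPM with NFIC shRNA. The groups did not overlap, and the log2 fold change was -0.99 (SE 0.072, adjusted p = 3.73e-09). The 8 myeloid markers examined were all expressed, from CD14 at 7.16 CPM to LYZ at 572 CPM in the mean of the scrambled samples. Of 8 markers of other cells, 3 had no row under their symbol and were not analysed here. HBB was at 0 and 0.0433 CPM in scrambled and NFIC shRNA samples, EPCAM at 0.463 and 0.151, COL1A1 at 5.22 and 1.78, and PECAM1, which monocytes also express, at 158 and 246. The summed CPM of the myeloid markers ranged from 1136 to 1295 with scrambled shRNA and from 1522 to 1677 with NFIC shRNA. LYZ carried this difference, at 572 and 940 CPM, and the list did not move together: 4 markers rose, with log2 fold changes of 0.99 for ITGAM, 0.72 for LYZ and 0.65 for CD14, and CD33 fell by 0.97 and CSF1R by 0.59. For the markers of other cells, mostly PECAM1, it ranged from 155 to 177 and from 236 to 265. Their part in the members' differences was not tested.

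With NFIC shRNA, the repair genes changed in both directions. At an adjusted p under 0.05, 17 of the 40 genes rose and 9 fell, while 14 did not pass. This is 42.5% and 22.5% of the set, against 29.6% of all tested genes higher and 30.3% lower. The median log2 fold change of the set was 0.19, against -0.01 over all genes tested, with a range from -1.03 for MUS81 to 0.88 for BRCA2. Most of the changes were under 1.5-fold. By over 1.5-fold, 2 members rose (BRCA2 and BLM; background 10.9%) and 5 fell (FANCF, RAD51B, RAD50, WRN and MUS81; background 17.6%). All 3 NFIC shRNA samples lay above all 3 scrambled samples for 14 members, where 32.2% of all genes did, and below them for 11 members, where 33% of all genes did. In bulk RNA, a change in the share of cells in a cycle phase and a change in RNA per cell cannot be told apart.

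**Figure D1:**
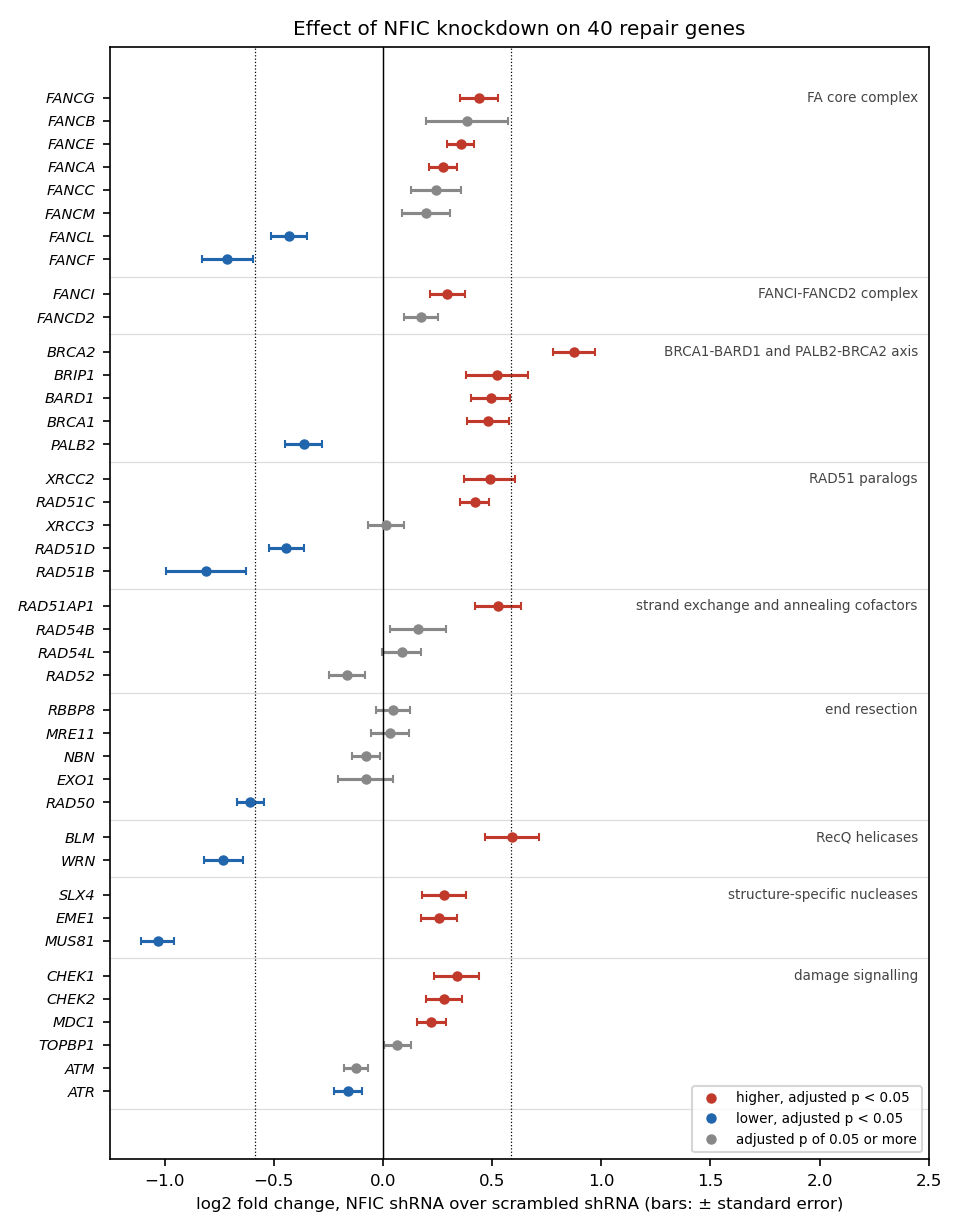
Log2 fold change of NFIC shRNA over scrambled shRNA for the 40 genes, grouped by role, with bars for ± 1 standard error from edgeR; dotted lines mark 1.5-fold. BRCA2 at 0.88 lies farthest to the right and MUS81 at -1.03 farthest to the left, and most groups hold genes on both sides of 0.

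**Figure D2:**
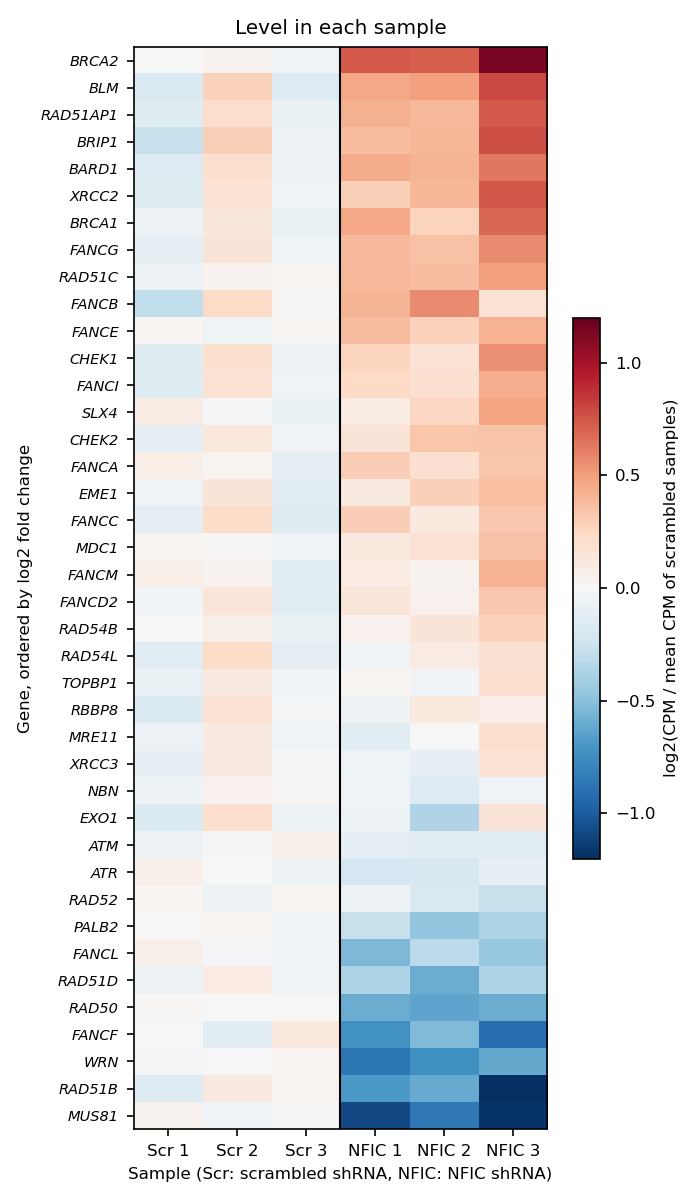
Log2 of CPM over the mean of the scrambled samples for the 40 genes (rows, ordered by log2 fold change) in each of the 6 samples (columns). The 3 NFIC shRNA samples are red at the top and blue at the bottom, and scrambled replicate 2 and NFIC shRNA replicate 3 are redder than the others of their group in many rows.

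The Fanconi core complex, the ubiquitin ligase of the pathway, was split. FANCA, FANCE and FANCG rose, FANCF and FANCL fell, and FANCB, FANCC and FANCM did not pass the test. FANCF, an adaptor that holds other core subunits together, was at 13.0, 11.9 and 14.1 CPM with scrambled shRNA and at 7.86, 9.01 and 6.89 CPM with NFIC shRNA. Every NFIC shRNA sample was below every scrambled one, with a log2 fold change of -0.71 (SE 0.12, adjusted p = 4.69e-05). FANCL, the catalytic subunit that carries the ligase activity, was at 26.0, 24.5 and 24.2 CPM against 17.2, 20.1 and 18.2 CPM. It fell by 0.43 on the log2 scale (SE 0.082, adjusted p = 2.25e-04). FANCG, a scaffold beside FANCA, went the other way, with 19.2, 23.2 and 20.1 CPM against 27.4, 26.6 and 31.0 CPM and a log2 fold change of 0.44 (adjusted p = 3.52e-04). FANCE, which binds FANCD2, rose by 0.36 on the log2 scale from 44.9 ± 1.48 to 57.5 ± 2.83 CPM (SD, n = 3). FANCA, the gene most often mutated in the disease, rose by 0.28 from 61.4 ± 3.82 to 74.4 ± 3.92 CPM (SD, n = 3).

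The core members that did not pass had positive estimates. The log2 fold changes were 0.39 (SE 0.19) for FANCB, 0.24 (SE 0.11) for FANCC and 0.20 (SE 0.11) for FANCM, a translocase that recruits the complex to DNA. FANCB was also among the weakest members in depth, with 2.03 to 2.93 CPM in scrambled samples. FANCB passed without scrambled replicate 2 (0.52) or without NFIC shRNA replicate 3 (0.49), and FANCC without scrambled replicate 2 (0.37) or NFIC shRNA replicate 2 (0.31). FANCI and FANCD2 are the substrates of the ligase. FANCI had 90.4, 113 and 97.1 CPM under the scrambled shRNA, against 118, 114 and 136 CPM under the NFIC shRNA, and rose by 0.30 on the log2 scale (SE 0.080, adjusted p = 0.00543). FANCD2 overlapped between groups, at 95.7 ± 9.51 and 108 ± 10.7 CPM (SD, n = 3), with a log2 fold change of 0.18 (SE 0.077) and an adjusted p of 0.0636. It passed in 5 of 16 alternative settings, among them total counts (0.19) and no filter on low counts (0.18). It also passed without scrambled replicate 2 (0.25) or NFIC shRNA replicate 2 (0.24).

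In the BRCA1-BARD1 and PALB2-BRCA2 axis, all 5 genes passed the test and their groups did not overlap, with 4 higher and 1 lower. Of all tested genes, 29.6% were higher and 30.3% lower. All NFIC shRNA samples lay above all scrambled ones for 32.2% of all tested genes and below them for 33%. BRCA2 (chr13:32315086-32400268), which loads the recombinase, was at 28.7, 29.7 and 28.0 CPM with scrambled shRNA and at 47.9, 47.4 and 63.3 CPM with NFIC shRNA. NFIC shRNA replicate 3 was the highest of the 6, and the other samples of that group were also well above the scrambled range. The log2 fold change was 0.88 (SE 0.098, adjusted p = 2.01e-06), the largest increase in the set. BRCA1 was at 74.8, 86.0 and 73.7 CPM against 108, 93.9 and 126 CPM, a log2 fold change of 0.48 (SE 0.097, adjusted p = 0.00118). BARD1, its obligate partner in the ubiquitin ligase, rose by 0.49 (SE 0.090, adjusted p = 1.59e-04) from 27.3 ± 3.52 to 38.6 ± 3.30 CPM. BRIP1, a helicase that binds BRCA1, rose by 0.52 (SE 0.14) from 23.4 ± 4.68 to 33.7 ± 5.36 CPM.

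PALB2, which links BRCA1 to BRCA2, was the member of this axis that fell. It was at 19.1, 19.5 and 18.6 CPM with scrambled shRNA and at 15.9, 13.9 and 14.8 CPM with NFIC shRNA. The log2 fold change was -0.36 (SE 0.086, adjusted p = 0.00144), opposite in sign to that of its partners. The summed CPM of the 5 genes was 177 ± 15.9 with scrambled shRNA and 249 ± 33.2 with NFIC shRNA (SD, n = 3), a ratio of 1.41.

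**Figure D3:**
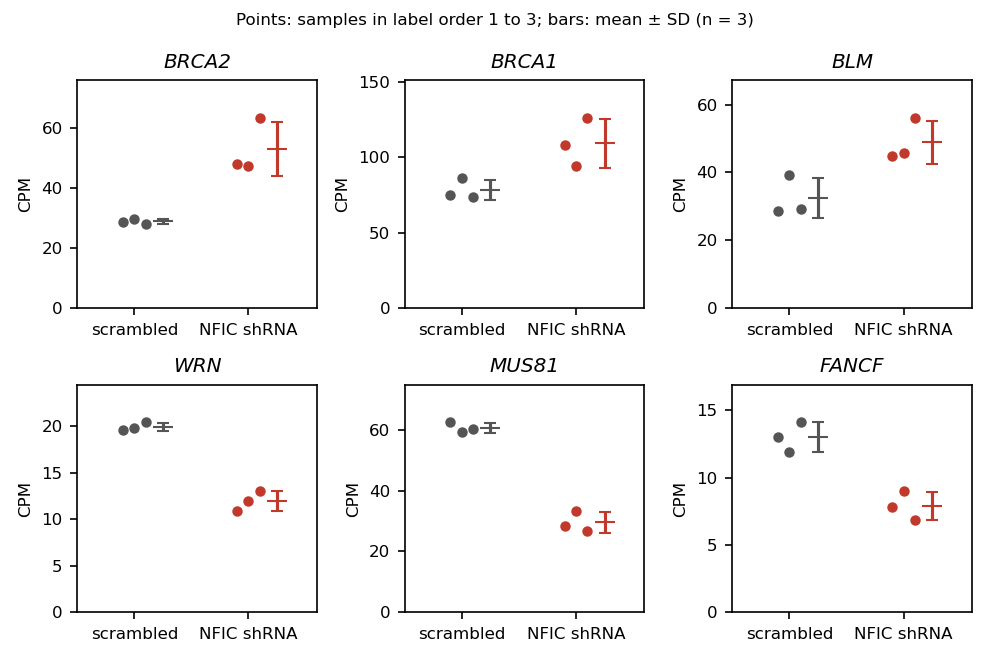
CPM in each sample for BRCA2, BRCA1, BLM, WRN, MUS81 and FANCF, from 0 on each vertical axis; points are samples in label order and bars are mean ± SD (n = 3). The groups do not overlap for any of the 6 genes, with BRCA2, BRCA1 and BLM higher and WRN, MUS81 and FANCF lower with NFIC shRNA.

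The 5 paralogs of the recombinase, which act in complexes with each other, moved apart. RAD51C and XRCC2 rose, RAD51B and RAD51D fell, and XRCC3 did not pass. RAD51C was at 29.7, 32.1 and 31.9 CPM with scrambled shRNA and at 40.9, 40.4 and 43.9 CPM with NFIC shRNA, a log2 fold change of 0.42 (SE 0.068, adjusted p = 4.11e-05). RAD51D was at 31.6, 35.4 and 32.2 CPM against 25.7, 21.9 and 25.6 CPM, and fell by 0.44 (SE 0.081, adjusted p = 1.43e-04). RAD51B was the least expressed of the members per length, at 0.537 FPKM in scrambled samples, and was at 3.65, 4.39 and 4.16 CPM against 2.52, 2.67 and 1.78 CPM. The log2 fold change was -0.81 (SE 0.18, adjusted p = 0.00105). XRCC2 rose by 0.49 (SE 0.12) from 13.7 ± 1.52 to 19.3 ± 3.30 CPM. XRCC3 was at 32.3 ± 2.34 and 32.6 ± 3.41 CPM, with a log2 fold change of 0.01 (SE 0.082), and 76.7% of its exonic bases lie on those of KLC1 on the other strand, which rose by 0.46. RAD51D shares 8.02% of its exonic bases with a read-through gene on its own strand, and with the counts of that gene added it fell by 0.32.

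Among the cofactors of strand exchange, RAD51AP1, which stimulates the recombinase, was at 22.7, 29.1 and 23.8 CPM with scrambled shRNA and at 33.8, 33.0 and 42.0 CPM with NFIC shRNA. It rose by 0.53 on the log2 scale (SE 0.11, adjusted p = 5.49e-04), and the groups did not overlap. RAD54L and RAD54B, translocases that act on the joint molecule, and RAD52, an annealing factor, did not pass. Their log2 fold changes were 0.09 (SE 0.091), 0.16 (SE 0.13) and -0.17 (SE 0.084). RAD52 was at 20.1 ± 0.702 CPM with scrambled shRNA and 17.9 ± 1.27 CPM with NFIC shRNA (SD, n = 3), with no overlap between the groups. It passed with upper-quartile normalization (-0.22). Without scrambled replicate 2, RAD54L passed at 0.21. FSBP, on the same strand, shares 66.0% of the exonic bases of RAD54B, so that their counts are uncertain.

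In end resection, 1 of 5 genes passed the test, where 11486 of all 19182 tested genes did. RAD50, the ATPase that tethers the broken ends, was at 49.1, 48.7 and 48.6 CPM with scrambled shRNA and at 32.3, 31.4 and 32.3 CPM with NFIC shRNA. The samples of each group lay close together, and the log2 fold change was -0.61 (SE 0.062, adjusted p = 1.99e-07). A same-strand read-through gene (ENSG00000283782) shares 76.9% of the exonic bases of RAD50. With its counts added, RAD50 fell by 0.39 and passed the test, though not by over 1.5-fold. The partners of RAD50, the nuclease MRE11 (log2 fold change 0.03, SE 0.086) and the signalling subunit NBN (-0.08, SE 0.063), did not pass. Neither did RBBP8, the cofactor of MRE11 (0.05, SE 0.079), or EXO1, the long-range exonuclease (-0.08, SE 0.13).

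The RecQ helicases BLM and WRN, which unwind recombination and fork intermediates, went in opposite directions. BLM was at 28.7, 39.4 and 29.2 CPM with scrambled shRNA and at 44.8, 45.7 and 56.1 CPM with NFIC shRNA. Scrambled replicate 2 was the highest of its group and still below the lowest NFIC shRNA sample. The log2 fold change was 0.59 (SE 0.12, adjusted p = 0.00157). Without scrambled replicate 2 it was 0.75. It was under 1.5-fold without scrambled replicate 1 (0.50), scrambled replicate 3 (0.51) or NFIC shRNA replicate 3 (0.48), and passed the test each time. WRN was at 19.5, 19.8 and 20.4 CPM against 10.9, 11.9 and 13.0 CPM, with no overlap. It fell by 0.73 on the log2 scale (SE 0.090, adjusted p = 2.05e-06).

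The structure-specific nucleases held the largest decrease of the set. MUS81 (chr11:65857126-65867653), the catalytic subunit of a nuclease that cleaves branched DNA, was at 62.3, 59.1 and 60.1 CPM with scrambled shRNA and at 28.5, 33.4 and 26.8 CPM with NFIC shRNA. The log2 fold change was -1.03 (SE 0.076, adjusted p = 4.06e-09), and the highest NFIC shRNA sample was well below the lowest scrambled one. CFL1 on the other strand covers 13.9% of the exonic bases of MUS81 and rose by 0.82 on the log2 scale. Whether the counting used strand is not given in the sources used here. Genes on the other strand also cover 16.4% of the exonic bases of EME1, 19.6% of FANCA and 19.9% of RAD54L, and smaller parts of other members. EME1, the partner of MUS81, rose by 0.26 (SE 0.083, adjusted p = 0.0129) from 32.5 ± 3.21 to 38.9 ± 3.46 CPM, with overlapping groups. SLX4, the scaffold for several nucleases, rose by 0.28 (SE 0.099, adjusted p = 0.0220) from 16.1 ± 0.947 to 19.5 ± 2.64 CPM, also with overlap. EME1 no longer passed without scrambled replicate 1 (0.23) or 3 (0.19), nor SLX4 without scrambled replicate 2 (0.27) or 3 (0.24) or NFIC shRNA replicate 3 (0.18). The summed CPM of the 3 genes was 109 ± 3.44 with scrambled shRNA and 87.9 ± 6.37 with NFIC shRNA, a ratio of 0.806.

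Of 6 damage signalling genes, 3 rose, 1 fell and 2 did not pass, and none changed by over 1.5-fold. Of all tested genes, 29.6% were higher and 30.3% lower. CHEK1, the kinase of the replication checkpoint, was at 30.6, 38.8 and 32.3 CPM with scrambled shRNA and at 40.8, 38.1 and 49.5 CPM with NFIC shRNA, and rose by 0.34 (SE 0.10, adjusted p = 0.0119) with overlap. It did not pass without scrambled replicate 1 (0.26) or 3 (0.30). CHEK2, the kinase below ATM, rose by 0.28 (SE 0.084) and MDC1, an adaptor at breaks, by 0.22 (SE 0.066), and CHEK2 did not pass without scrambled replicate 1 (0.23). ATR, the kinase activated by single-stranded DNA, was at 49.2, 47.4 and 45.3 CPM against 41.0, 41.5 and 44.3 CPM and fell by 0.16 (SE 0.064, adjusted p = 0.0368). This call was lost in 8 of the 16 alternatives, among them leaving out scrambled replicate 1 or 2 or NFIC shRNA replicate 1 or 2 (-0.17 to -0.14). ATM, the kinase activated by breaks, was at 71.5 ± 3.31 and 65.6 ± 0.276 CPM, with a log2 fold change of -0.12 (SE 0.056, adjusted p = 0.0661). ATM passed in 4 of the 16 alternatives, among them upper-quartile normalization (-0.18) and leaving out scrambled replicate 1 (-0.16). TOPBP1, which activates ATR, had a log2 fold change of 0.07 (SE 0.063). Per length it was the most expressed member, at 27.2 FPKM in scrambled samples, ahead of FANCE at 16.4 FPKM.

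Partner genes were also compared as ratios of raw counts within a sample, which need no scaling between samples. With 3 samples against 3, the two-sided exact permutation test cannot go below 0.1. That exact permutation value was reached by 10 of the 12 pairs, with an adjusted p of 0.12. For single genes, all NFIC shRNA samples lay above all scrambled ones in 32.2% of those tested and below them in 33%. The share over other pairs of genes was not computed. The MUS81 to EME1 ratio was 1.97, 1.64 and 2.01 under the scrambled shRNA, against 0.812, 0.841 and 0.640 under the NFIC shRNA, a log2 change of -1.30. The PALB2 to BRCA2 ratio was 0.665, 0.657 and 0.665 against 0.332, 0.293 and 0.233, a log2 change of -1.23. The BLM to WRN ratio was 1.47, 1.99 and 1.43 against 4.11, 3.83 and 4.31, a log2 change of 1.34. In these 3 pairs the ratios of the groups lay far apart.

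The remaining ratios moved less. RAD51D to XRCC2 went from 2.42 ± 0.122 to 1.29 ± 0.223, and MRE11 to RAD50 from 0.617 ± 0.0434 to 0.960 ± 0.113 (SD, n = 3). The log2 changes of NBN to RAD50, CHEK1 to ATR, RAD51C to XRCC3 and CHEK2 to ATM were 0.53, 0.50, 0.41 and 0.40. FANCD2 to FANCI changed by -0.12, without overlap between the groups. BRCA1 to BARD1 was 2.87 ± 0.150 and 2.83 ± 0.204 (exact permutation p = 0.8), and RAD54L to RAD54B 6.70 ± 0.715 and 6.38 ± 0.0783 (exact permutation p = 0.7). Reads of the same-strand genes that overlap RAD50, RAD51D and RAD54B were not added in these ratios. How far they would move the ratios was not tested.

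**Figure D4:**
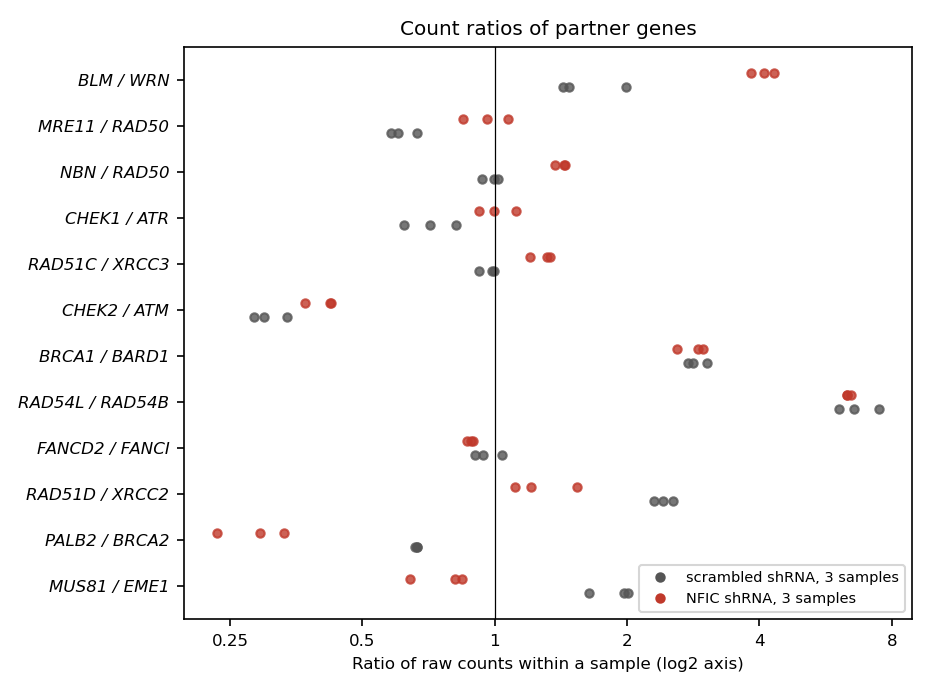
Ratio of raw counts of partner genes in each of the 6 samples on a log2 axis, with scrambled samples in grey and NFIC shRNA samples in red. The groups lie apart for 10 of the 12 pairs, most widely for BLM to WRN, MUS81 to EME1 and PALB2 to BRCA2. They overlap for BRCA1 to BARD1 and RAD54L to RAD54B. The share over other pairs of genes was not computed.

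A pair of libraries was often the highest of its group. Scrambled replicate 2 had the highest CPM of its group for 27 of the 40 members (67.5%, against 36.6% of all genes), and NFIC shRNA replicate 3 for 30 (75%, against 38.3%). The summed CPM of 34 S phase genes moved with them, at 1984, 2534 and 1991 under the scrambled shRNA, against 2309, 2228 and 2668 under the NFIC shRNA, so that both libraries were the highest of their groups there too. Of these S phase genes 12 rose, 4 fell and 18 did not pass, with a median log2 fold change of 0.16. By over 1.5-fold, CDC6 (0.95) and POLE (0.67) rose, and PCNA fell by 1.31 and POLD1 by 0.75. The summed CPM of 30 G2/M genes ranged from 2342 to 2575 with scrambled shRNA and from 3507 to 4450 with NFIC shRNA. Of these, 25 rose, 21 of them by over 1.5-fold, and 5 did not pass, with a median log2 fold change of 0.76. NEK2 (1.70), PRC1 (1.19) and CCNB1 (0.83) had the smallest adjusted p. The part of cell cycle phase in the members' differences was not tested. Without both libraries, 19 members were higher and 10 lower, where 5466 of all 19325 tested genes were higher and 5559 lower.

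Of a further 53 genes of the same pathways, 20 were higher, 7 were lower and 26 did not pass, with a median log2 fold change of 0.13. The 3 with the smallest adjusted p among those higher by over 1.5-fold were GEN1, a resolvase (14.4 ± 0.445 to 23.7 ± 3.58 CPM, log2 fold change 0.72), FIGNL1, a regulator of the recombinase (0.63), and UBE2T, the ubiquitin-conjugating enzyme that works with FANCL (0.76). ERCC1, the partner of the nuclease ERCC4, fell by 0.61 and SLX4IP, an SLX4-binding protein, by 0.92. Among 18 genes of non-homologous end joining, the alternative repair of breaks, 7 were higher and 3 lower, with a median of 0.08. NHEJ1, a ligation factor, was the one of these past 1.5-fold, and fell by 0.69.

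**Figure D5:**
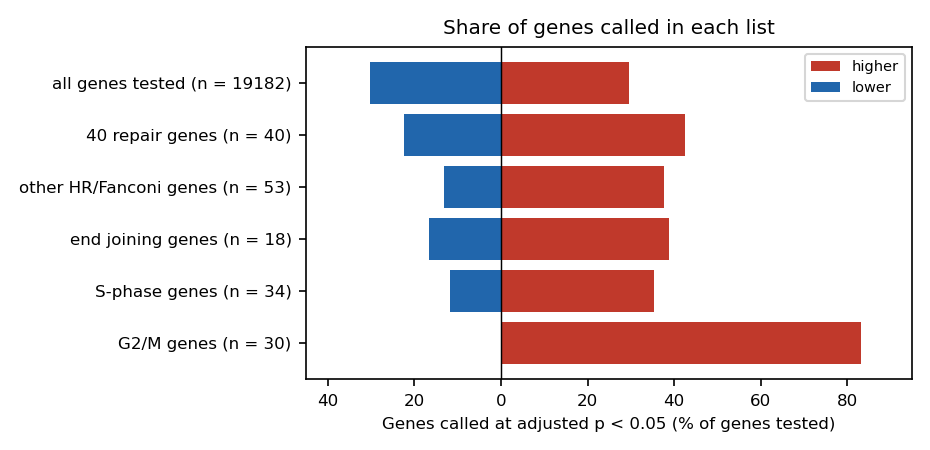
Percent of genes tested that were higher (red, to the right) or lower (blue, to the left) at an adjusted p under 0.05, for all tested genes, the 40 repair genes and 4 other lists. The 40 genes stand at 42.5% and 22.5% against 29.6% and 30.3% of all genes, while 83.3% of the G2/M genes were higher.

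Several members lie head to head with another gene, which gives a comparison outside the set. In the GENCODE annotation of GRCh38, 16 members had a protein-coding gene starting within 1000 bases on the opposite strand. Among 7 such members that rose, 3 neighbours rose and 4 did not pass, and among 3 that fell, 1 neighbour rose and 2 fell. Among 6 that did not pass, 3 neighbours rose and 3 fell. The shares over all tested genes were 29.6% higher and 30.3% lower, and the counts of neighbours are small. NBR1, which starts 236 bases from BRCA1, rose by 0.66 on the log2 scale, and C12orf4, 290 bases from RAD51AP1, by 0.88. FNDC8, 93 bases from RAD51D, fell by 1.15. GAS2 fell by 0.69, and its exons cover 9.57% of the exonic bases of FANCF on the other strand. PALB2 and its neighbour DCTN5, 145 bases away, went in opposite directions, with -0.36 and 0.13. NPAT, 406 bases from ATM, rose by 0.46.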

How the data were processed

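RNA from 3 scrambled shRNA and 3 NFIC shRNA samples of THP-1 cells was analysed from the 1 table the authors deposited. Per the submitters' processing notes and the study's methods, reads were trimmed with Trim Galore, checked with FastQC, mapped to GRCh38 with STAR and counted on Ensembl genes with featureCounts, whose versions and strand setting are not given in the sources used here. The deposited table gives raw counts per gene, used here. The authors also deposited a normalized signal (counts over a size factor from DESeq2), FPKM from that signal and the gene length, and their own comparison (log2 fold change, its error, a Wald score, and p-values with their adjustment). FPKM was used to order levels between genes, and the authors' own comparison was not used.

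Counts were tested with edgeR 4.0.16 (R 4.3.3) with TMM normalization, filterByExpr, its quasi-likelihood test and robust dispersion estimates, with Benjamini-Hochberg adjustment over the 19182 genes tested. CPM was scaled by TMM factors. Partner ratios were compared by exact permutation over samples. The alternatives were other normalizations and filters, DESeq2 1.42.0, limma 3.58.1 on log2(normalized count + 1), a replicate block, an adjusted p under 0.01 and each sample left out in turn, and, chosen after seeing the data, both highest S phase libraries left out and the reads of same-strand overlapping genes added. Samples with the same replicate number did not deviate together, and a pairing by the numbers in the sample titles was not tested. The edgeR code was tested on simulated data. The members and the other lists were chosen with earlier results of these data known. All 40 members are accounted for, and from the other lists up to 3 genes in each direction with the smallest adjusted p over 1.5-fold were named. Genes that are neighbours or overlap members (KLC1, CFL1, NBR1, C12orf4, FNDC8, GAS2, DCTN5 and NPAT) fall outside that rule and were chosen with their values in view. Positions come from GENCODE and promoter windows from RefSeq. A marker of the other cells is not reported here.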

Additional observations from a re-analysis of the deposited data

How the results depend on the processing

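Over the samples left out in turn, between 14 and 20 members were higher and between 8 and 9 lower. Of the 19579 to 19707 genes tested, between 5090 and 5586 were then higher and between 5353 and 5714 lower. The median log2 fold change of the members lay between 0.10 and 0.24, and between 1 and 5 members were higher by over 1.5-fold. That last count, 2 as reported, was 1 without scrambled replicate 1 or 3 or NFIC shRNA replicate 3, 5 without scrambled replicate 2 and 4 without NFIC shRNA replicate 2. It was also 1 with upper-quartile normalization and 1 with at least 10 counts in every sample; fitted folds near the limit (BLM at 0.59) cross it, and the cause was not tested. With upper-quartile normalization 16 members were higher and 11 lower, where 4953 of all 19182 tested genes were higher and 6503 lower. At an adjusted p under 0.01, 14 members were higher and 8 lower, without EME1, CHEK1, SLX4 and ATR. The share of all genes at that limit was not counted. Of the 26 members called, 21 kept their call in all 16 alternatives at the 0.05 threshold; ATR, SLX4, EME1, CHEK1 and CHEK2 lost it in some. The direction of 4 members that were not called reversed: XRCC3 was at -0.043 with upper-quartile normalization, at -0.0195 without scrambled replicate 2 and NFIC shRNA replicate 3, and between -0.0726 and 0.0715 with a sample left out; MRE11 was at -0.026, -0.0078 and between -0.0602 and 0.112; RBBP8 was at -0.0109 with upper-quartile normalization and between -0.0402 and 0.134 with a sample left out; and EXO1 lay between -0.21 and 0.0514. XRCC3 was at 0 with at least 10 counts in every sample. Samples with the same replicate number in the labels did not deviate together (correlations 0.08, -0.15 and -0.08). The sample titles number the controls differently, and a pairing by title or a shared batch was not tested. With a replicate block, 17 members were higher and 8 lower, and 25 of the 26 calls were kept. Of all 19182 tested genes, 5439 were then higher and 5544 lower.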
